A study of Mus musculus with 15 samples.

Results

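Pitx3 and Nr4a2, the genes of 2 transcription factors that midbrain dopaminergic neurons use, were followed by RNA-seq through the brain of the mouse embryo. The genes were taken by their symbols from a table of 24264 genes, and each symbol had 1 row. The table covered 5 regions dissected at E12.5, when dopaminergic neurons are being born: the ventral midbrain, the dorsal midbrain, the alar plate, the forebrain and the hindbrain, with 3 libraries each. All 15 samples came from C57bl/6 mice that expressed GFP, a green fluorescent protein, from the promoter of Th, the gene of tyrosine hydroxylase, and no group differed in genotype or treatment. The tissue was dissected whole, and the labels describe no sorting of fluorescent cells. The labels do not say from which level of the brain the alar plate was taken, nor whether a region's samples were separate embryos. The spread behind the p-values is that between these samples, and part of it may be technical.

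Nr4a2, also called Nurr1, encodes an orphan nuclear receptor that binds DNA alone or with a retinoid X receptor. In the ventral midbrain it appears in newborn dopaminergic neurons and is needed for their transmitter genes, and it is also known from other neurons of the forebrain and hindbrain. Pitx3 encodes a paired-like homeodomain protein that, within the brain, is known from midbrain dopaminergic neurons, and outside it from the lens and muscle. Mice that lack Pitx3 lose most dopaminergic neurons of the substantia nigra. The proteins act together on genes for making, storing and taking up dopamine.

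The sequence just before the start site of each gene is shown first, beside those of Th and of Ddc, the gene of aromatic L-amino acid decarboxylase, as genes of dopamine synthesis that have been linked to these factors. Each is the 250 bases before the annotated start, 5′ to 3′ on the gene's own strand, from RefSeq on GRCm38.p6. Pitx3 lies at chr19:46148326-46148575 (minus strand), Nr4a2 at chr2:57124004-57124253 (minus strand), Th at chr7:142899996-142900245 (minus strand) and the first start of Ddc at chr11:11898145-11898394 (minus strand). Capitals mark a match to one of 4 motifs.
Pitx3: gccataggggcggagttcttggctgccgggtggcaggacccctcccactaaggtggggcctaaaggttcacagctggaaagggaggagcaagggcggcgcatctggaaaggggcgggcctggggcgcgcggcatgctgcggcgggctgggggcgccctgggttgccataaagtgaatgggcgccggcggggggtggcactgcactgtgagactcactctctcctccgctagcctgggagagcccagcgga
Nr4a2: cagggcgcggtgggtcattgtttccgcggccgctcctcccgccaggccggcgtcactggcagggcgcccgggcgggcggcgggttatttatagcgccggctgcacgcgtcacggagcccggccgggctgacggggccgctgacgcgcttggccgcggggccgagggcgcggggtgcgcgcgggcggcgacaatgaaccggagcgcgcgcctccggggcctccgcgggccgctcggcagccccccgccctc
Th: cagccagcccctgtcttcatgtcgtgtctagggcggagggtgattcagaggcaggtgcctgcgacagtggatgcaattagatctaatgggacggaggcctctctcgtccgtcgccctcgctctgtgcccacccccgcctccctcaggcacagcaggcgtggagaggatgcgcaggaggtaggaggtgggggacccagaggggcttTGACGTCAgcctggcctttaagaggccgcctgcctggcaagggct
Ddc: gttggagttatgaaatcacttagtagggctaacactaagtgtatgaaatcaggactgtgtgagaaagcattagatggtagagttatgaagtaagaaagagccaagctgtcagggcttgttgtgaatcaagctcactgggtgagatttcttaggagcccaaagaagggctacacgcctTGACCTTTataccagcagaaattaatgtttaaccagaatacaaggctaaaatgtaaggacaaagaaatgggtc
The motifs searched on both strands, in windows that also took 50 bases after the start, were AAAGGTCA, which NR4A proteins bind as monomers, TAATCC, bound by PITX proteins, the cAMP response element TGACGTCA, and the homeodomain core TAATTA. They do not overlap in letters with each other in these windows. Of 32851 RefSeq promoter windows of this length, 1.51% held AAAGGTCA, 7.06% TAATCC, 1.79% TGACGTCA and 5.29% TAATTA. The windows of Pitx3 and Nr4a2 held none of the 4. The Th window held TGACGTCA from base -45, and the window of the first Ddc start held the reverse of AAAGGTCA from base -73. The window of the second annotated Ddc start, not printed here, held none of the 4. Which Ddc start these tissues use was not tested. A match here is a description of letters and not a measured binding site.

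Values are RPKM, reads scaled for the length of the gene model and the mapped reads of the library, so they can be compared between genes. The 15 libraries held 8419186 to 12724100 reads recovered from the deposited values. RPKM summed over all genes came to 489420 in alar plate 3 and to 374280 to 390992 in the other libraries. Values of alar plate 3 therefore compare less safely with those of other libraries, and the cause was not tested. The 3 ventral midbrain libraries resembled each other, with Pearson r across genes between 0.991 and 0.993. In each other region 1 library stood apart from its pair: dorsal midbrain 3 (r of 0.967 and 0.971, against 0.995 within the pair), alar plate 3 (0.927 and 0.925, against 0.987), forebrain 1 (0.964 and 0.960, against 0.990) and, least so, hindbrain 1 (0.984 and 0.985, against 0.993). The markers of the labelled regions also varied. A sum of 5 forebrain patterning genes (Six3, Emx2, Lhx2, Dlx1 and Dlx2) was 221, 72.8 and 55.2 RPKM in the forebrain libraries and 152 to 197 RPKM in the alar plate. Hoxa2, a hindbrain gene, had 0.107 RPKM in hindbrain 1, against 11.1 and 6.24 RPKM in hindbrain 2 and 3. In tissue made of many cell types, fewer cells of a type and less RNA per cell cannot be told apart.

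Pitx3 was almost restricted to the ventral midbrain. Its level there was 20.4, 27.9 and 25.6 RPKM in libraries 1, 2 and 3, from 272, 483 and 407 reads, and averaged 24.6 ± 3.83 RPKM (SD, n = 3). The 12 libraries of the other regions held 84 Pitx3 reads in all, and 7 of them held none. In the dorsal midbrain Pitx3 had 0, 0.0552 and 0 RPKM, from a single read in library 2. The alar plate had 1.34, 0.653 and 0 RPKM, from 27, 12 and 0 reads. The forebrain had 0, 1.66 and 1.17 RPKM, from 0, 23 and 21 reads. The hindbrain had 0 reads in each library, which allows up to 0.193, 0.173 and 0.165 RPKM, the worth of 3 reads, a limit that covers counting error only. The ventral midbrain libraries therefore lay apart from every other library, and the 4 libraries with more than 3 reads elsewhere were alar plate 1 and 2 and forebrain 2 and 3.

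**Figure D1:**
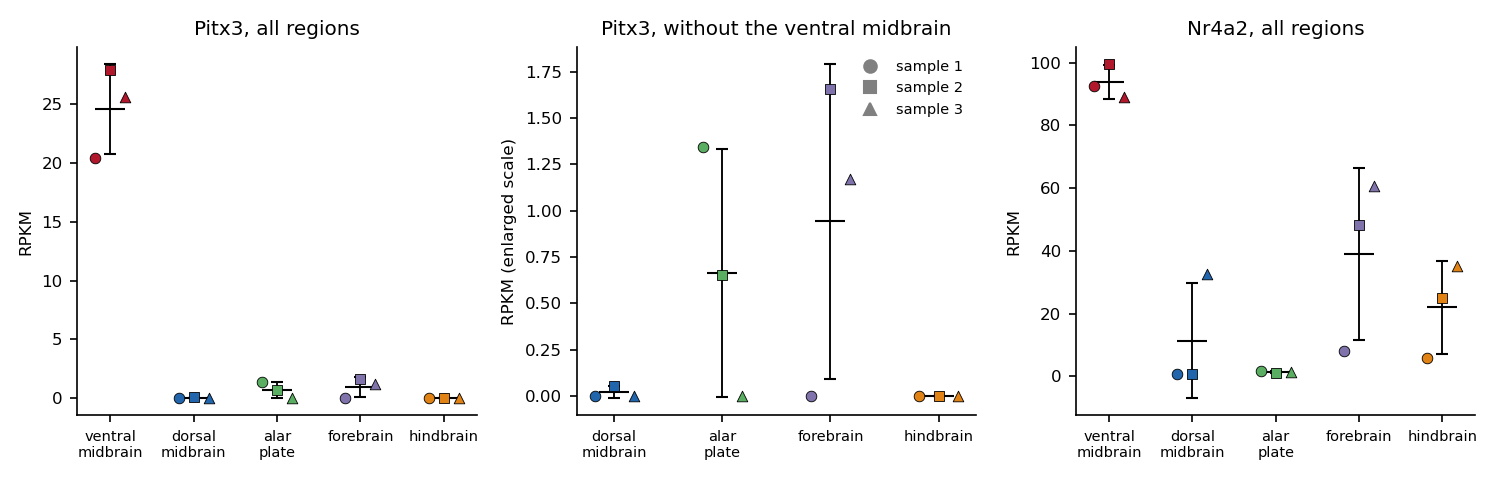
RPKM of Pitx3 (left, and enlarged in the middle without the ventral midbrain) and Nr4a2 (right) in each library, by region. Circles, squares and triangles are samples 1, 2 and 3, and the black bars give the mean and SD of 3 libraries. The 3 ventral midbrain libraries sit above all 12 others for both genes, with Pitx3 at 20.4 to 27.9 RPKM and Nr4a2 at 89.1 to 99.7 RPKM. Nr4a2 spreads widely within the dorsal midbrain, forebrain and hindbrain.

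The mean RPKM of Pitx3 in the ventral midbrain was 37.1-fold that of the alar plate (75.5-fold without alar plate 1, 24.7-fold without alar plate 3) and 26.1-fold that of the forebrain (42.1-fold without forebrain 2, 17.4-fold without forebrain 1). Against the hindbrain it was at least 139-fold higher, with the hindbrain set to 3 reads per library. Against the dorsal midbrain the pooled reads, 1162 in the ventral and 1 in the dorsal midbrain, gave a ratio of 1305 with an exact 95% interval of 234 to 51590 that covers counting error only. On a log2(RPKM + 1) scale, where changes of low genes come out too small, limma put the ventral midbrain 4.29 ± 0.26 (SE) above the mean of the other 4 regions (adjusted p = 3.18e-07). The differences were 4.64 ± 0.33 from the dorsal midbrain (adjusted p = 1.6e-06 by limma), 4.02 ± 0.33 from the alar plate (adjusted p = 5.65e-06), 3.83 ± 0.33 from the forebrain (adjusted p = 1.14e-05) and 4.67 ± 0.33 from the hindbrain (adjusted p = 3.67e-06). All passed the threshold of an adjusted p under 0.05. They kept it in each of 24 alternative fits, which gave 120 results over these comparisons. Their size depended on the pseudocount: with 0.1 in place of 1 the difference from the mean of the other regions was 6.67. Without dorsal midbrain 3, alar plate 3 and forebrain 1 it was 4.10 (adjusted p = 1.35e-08).

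Nr4a2 was the more abundant gene and was not restricted to the ventral midbrain. There it had 92.7, 99.7 and 89.1 RPKM, from 2882, 4027 and 3305 reads, and averaged 93.8 ± 5.37 RPKM (SD, n = 3). The dorsal midbrain had 0.827, 0.781 and 32.6 RPKM. The alar plate had 1.73, 0.979 and 1.39 RPKM. These values were low and close together in the alar plate, while dorsal midbrain 3 stood far above its pair. The forebrain had 8.15, 48.2 and 60.6 RPKM. The hindbrain had 5.99, 25.1 and 35.1 RPKM. Forebrain 1 and hindbrain 1 were the low libraries of their regions, and no library of any other region reached the lowest of the ventral midbrain. The highest library was 1.12 times the lowest in the ventral midbrain, 41.8 times in the dorsal midbrain, 1.76 times in the alar plate, 7.44 times in the forebrain and 5.86 times in the hindbrain.

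The mean RPKM of Nr4a2 in the ventral midbrain was 8.23-fold that of the dorsal midbrain, 68.8-fold that of the alar plate, 2.41-fold that of the forebrain and 4.25-fold that of the hindbrain. The first of these folds rests on dorsal midbrain 3, without which it was 117-fold. By limma on log2(RPKM + 1) the ventral midbrain lay 3.41 ± 0.80 above the mean of the other 4 regions (adjusted p = 0.014), 4.31 ± 1.01 above the dorsal midbrain (adjusted p = 0.00945) and 5.34 ± 1.01 above the alar plate (adjusted p = 0.00344). The difference from the forebrain was 1.65 (95% interval -0.53 to 3.82, adjusted p = 0.435) and from the hindbrain 2.34 (95% interval 0.16 to 4.52, adjusted p = 0.318), and neither passed, although the ventral midbrain libraries overlapped with no forebrain or hindbrain library. Both members passed against the mean of the other regions, where 10.6% of the 13745 genes tested did. Both also passed against the dorsal midbrain and the alar plate, where 23.9% and 14.2% of genes passed. Only Pitx3 passed against the forebrain and the hindbrain, where 8.33% and 3.80% of genes passed. The 3 ventral midbrain libraries lay above the other 12 for both members and for 4.89% of genes tested.

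In comparisons with the ventral midbrain the calls of Nr4a2 changed between fits, which those of Pitx3 did not. The Nr4a2 call against the mean of the other regions was lost without ventral midbrain 1, 2 or 3 (adjusted p = 0.0675, 0.0711 and 0.0697) and with the 12 other libraries taken as 1 group (adjusted p = 0.118). Its call against the dorsal midbrain was lost without dorsal midbrain 1 or 2 (adjusted p = 0.0539 and 0.0518). Without dorsal midbrain 3 the difference from the dorsal midbrain was 5.71 (adjusted p = 0.000252). Without forebrain 1 the difference from the forebrain was 0.78 (adjusted p = 0.763). The difference from the hindbrain passed in a fit of those regions alone (2.34, adjusted p = 0.0246) and without dorsal midbrain 3, alar plate 3 and forebrain 1 (adjusted p = 0.00471).

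**Figure D2:**
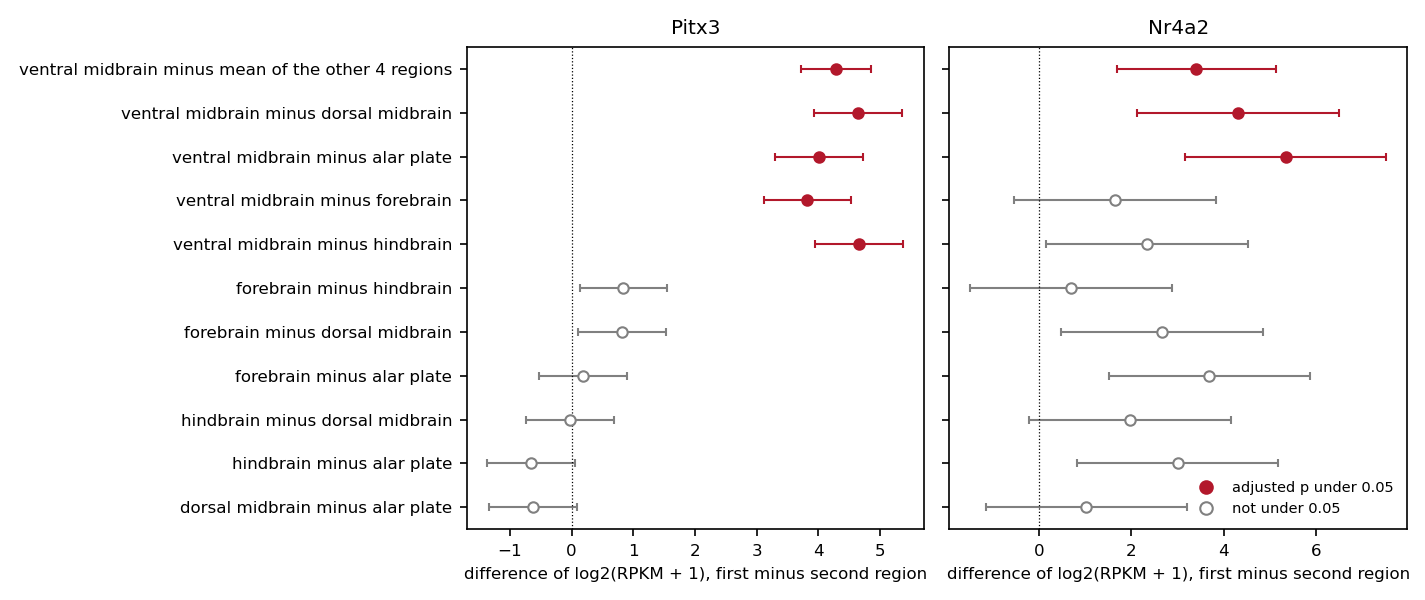
Differences of log2(RPKM + 1) between regions for Pitx3 (left) and Nr4a2 (right), first region minus second, with 95% intervals from 1 limma fit of 15 libraries. Filled red points have an adjusted p under 0.05 and open grey points do not. The 5 ventral midbrain comparisons of Pitx3 are red, with differences of 3.83 to 4.67, against 3 of 5 for Nr4a2, and none of the comparisons without the ventral midbrain is red.

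Among the other 4 regions none of the 12 tests of the members passed by limma in the fit of 15 libraries, 5 had an unadjusted p under 0.05 (2 of Pitx3 and 3 of Nr4a2), and limma-voom on the recovered reads called 0. Of all genes tested, 2.70% passed between forebrain and hindbrain, 27.3% between forebrain and dorsal midbrain, 0.0946% between forebrain and alar plate, 32.1% between hindbrain and dorsal midbrain, 9.97% between hindbrain and alar plate and 1.67% between dorsal midbrain and alar plate. For Nr4a2 the forebrain lay 3.69 above the alar plate on the log2(RPKM + 1) scale (adjusted p = 0.12) and the hindbrain 2.999 above it (adjusted p = 0.0717). These comparisons turned on the libraries that stood apart: without dorsal midbrain 3, alar plate 3 and forebrain 1, 8 of the 12 passed, with Nr4a2 in the forebrain 4.57 above the alar plate (adjusted p = 0.000651) and Pitx3 in the forebrain 1.26 above the hindbrain (adjusted p = 0.00103). Of the 12 tests, 5 passed without forebrain 1 alone, 4 without dorsal midbrain 3 and 1 without alar plate 3. Calls over all genes also moved, so these counts are not particular to the members. In the order of comparisons above, the main fit called 371, 3755, 13, 4410, 1371 and 230 genes. The most called in any of the 24 alternative fits were 1241, 8641, 3719, 8693, 4083 and 5370. With the replicate number as a block 2 passed, both of Nr4a2, in the forebrain over the dorsal midbrain (adjusted p = 0.0373 by limma) and in the hindbrain over the alar plate (adjusted p = 0.0486), and 1 passed when each pair of regions was fitted alone.

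By mean RPKM, Pitx3 was highest in the ventral midbrain, then in the forebrain (0.942 ± 0.851), the alar plate (0.665 ± 0.671), the dorsal midbrain (0.0184) and the hindbrain (0), with n = 3 each. The step from ventral midbrain to forebrain was the only one between neighbours in this order to pass. Nr4a2 was highest in the ventral midbrain, then in the forebrain (39.0 ± 27.4), the hindbrain (22.1 ± 14.8), the dorsal midbrain (11.4 ± 18.4) and the alar plate (1.36 ± 0.374), and no step between neighbours passed. The ratio of Nr4a2 to Pitx3 RPKM was 4.54, 3.57 and 3.48 in the ventral midbrain libraries. It was 1.29 and 1.501 in alar plate 1 and 2, and 29.1 and 51.8 in forebrain 2 and 3. In the remaining 8 libraries Pitx3 had no read, or in dorsal midbrain 2 a single one, so no ratio was formed. The libraries with Pitx3 reads outside the ventral midbrain therefore differed in how much Nr4a2 came with them.

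Genes that have been linked to Nr4a2 or Pitx3 in dopaminergic neurons, as targets or as parts of the dopamine phenotype, were high in the same tissue. Of 14 such genes, 12 passed the filter on low values and all 12 were higher in the ventral midbrain, set against the mean of the other regions, with a median difference of 2.59 on the log2(RPKM + 1) scale, beside -0.02 over all genes tested, 7.43% of which were called higher. Against single regions, 12 were higher than in the dorsal midbrain, 12 than in the alar plate, 11 than in the forebrain and 8 than in the hindbrain, where 11.4%, 9.12%, 6.39% and 2.39% of all genes were. Leaving out 1 library moved the count against the forebrain to as few as 8, and with the other 12 libraries as 1 group 10 of 12 were higher than the other regions, where 2.96% of all genes were. Aldh1a1, which oxidises retinal and dopamine metabolites, averaged 0.74 RPKM in the ventral midbrain, and Bdnf, a neurotrophin, 0.88 RPKM, and both fell under the filter. The filter, 1 RPKM or more in at least 3 libraries, could be met by the ventral midbrain alone. Vip, at most 0.577 RPKM elsewhere, met it only there. Slc6a3, over 1 RPKM elsewhere only in forebrain 2 and 3, also needed its ventral midbrain libraries. That these genes were higher was thus largely fixed by the filter, and the counts and median above include them.

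For dopamine synthesis, Th had 77.5, 81.7 and 68.9 RPKM in the ventral midbrain and at most 6.39 RPKM elsewhere, in forebrain 3. Its difference from the mean of the other regions was 4.71 ± 0.19 (SE, adjusted p = 1.07e-08 by limma). Ddc, which completes the synthesis, averaged 155 ± 11.9 RPKM in the ventral midbrain and 15.7 ± 11.9 and 15.2 ± 8.61 RPKM in the forebrain and hindbrain. Gch1, which makes the cofactor of tyrosine hydroxylase, had a difference of 2.90 from the other regions. For transport, Slc6a3, the plasma membrane dopamine carrier, had 6.55, 11.1 and 9.88 RPKM in the ventral midbrain, and outside it 1.14 and 1.34 RPKM in forebrain 2 and 3 and at most 0.0486 RPKM in the other 10 libraries. Slc18a2, the vesicular monoamine carrier that serotonin neurons share, averaged 46.3 ± 2.45 RPKM in the ventral midbrain and 23.4 ± 2.48 RPKM in the hindbrain, a difference of 0.96 that did not pass (adjusted p = 0.531 by limma) but did in a fit of these regions alone (adjusted p = 0.000333) and without dorsal midbrain 3, alar plate 3 and forebrain 1 (adjusted p = 0.00025). Among receptors and signalling genes, Ret, the GDNF co-receptor, averaged 10.9 RPKM in the ventral midbrain, against 1.07 in the dorsal midbrain, 1.23 in the alar plate, 1.58 in the forebrain and 0.912 in the hindbrain. Drd2, the dopamine autoreceptor, Dlk1, a membrane protein related to Notch ligands, and Ptpru, a receptor phosphatase, were called against the mean of the other regions but not against the hindbrain, and Dlk1 was not called against the forebrain.

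**Figure D3:**
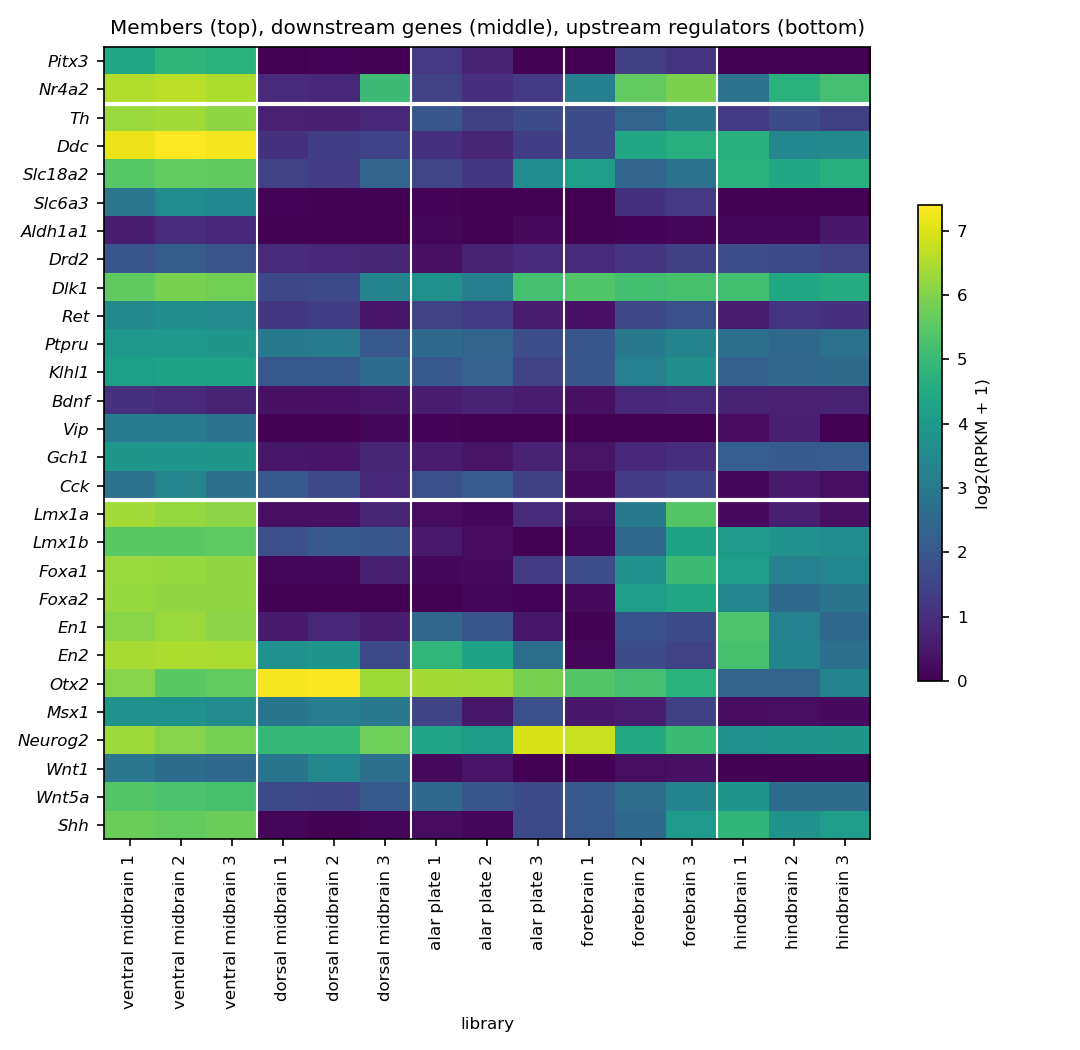
Colour gives log2(RPKM + 1) of each gene (rows) in each of the 15 libraries (columns, by region). The top block holds Pitx3 and Nr4a2, the middle block 14 genes linked to them as downstream genes, and the bottom block 12 genes known to act before them. Most rows are bright in the 3 ventral midbrain columns. Forebrain 2 and 3 show Nr4a2, Foxa1, Foxa2 and Lmx1a, dorsal midbrain 3 shows Nr4a2 with Foxa2 and Th both below 1 RPKM, and Otx2 is brightest in dorsal midbrain 1 and 2.

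Most genes that act before Pitx3 and Nr4a2 in the floor plate and its progenitors were also higher than in the mean of the other regions. Of 12 upstream regulators, 10 were higher than in the mean of the other regions and none was lower, with a median difference of 3.47, where 7.43% of all genes were called higher and 3.16% lower. Lmx1a reached 1 RPKM elsewhere only in forebrain 2 and 3, at 6.93 and 41.3 RPKM. It thus met the filter only through its ventral midbrain libraries, and the count and median include it. Otx2 and Neurog2 did not pass, and Otx2 was lower in the ventral than in the dorsal midbrain (difference of -1.27, adjusted p = 0.0116 by limma). That Otx2 call was lost without ventral midbrain 2, dorsal midbrain 1 or dorsal midbrain 2 (adjusted p = 0.0524, 0.0608 and 0.0604). Set against single regions, 8 of the 12 were higher than in the dorsal midbrain, 10 than in the alar plate, 10 than in the forebrain and 7 than in the hindbrain. Of all genes, 11.4%, 9.12%, 6.39% and 2.39% were. Wnt1 and Msx1 were not called against the dorsal midbrain, with differences of -0.32 and 0.75. With the other 12 libraries as 1 group, 8 of the 12 were higher and none lower, beside 2.96% and 0.822% of all genes, and without dorsal midbrain 3, alar plate 3 and forebrain 1, 11 were, beside 15.9%.

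The libraries outside the ventral midbrain that held Pitx3 reads differed in several of these genes. Taking the ventral midbrain mean as 100%, Pitx3 stood at 6.72% and 4.75% in forebrain 2 and 3. In the same libraries Foxa2, a floor plate forkhead factor, was at 22.5% and 28.5%, Lmx1a, a LIM homeodomain factor of dopaminergic progenitors, at 9.25% and 55.1%, Slc6a3 at 12.4% and 14.6%, Th at 5.58% and 8.40% and Nr4a2 at 51.4% and 64.6%. In alar plate 1 and 2 Pitx3 stood at 5.45% and 2.65%. There Foxa2 was at 0 and 0.10%, Lmx1a at 0.26% and 0.12%, Slc6a3 at 0.45% and 0, Th at 3.90% and 2.16% and Nr4a2 at 1.84% and 1.04%. Foxa2, Lmx1a and Slc6a3 were thus below 1% of their ventral midbrain level in these alar plate libraries and at 9.25% or more in these forebrain libraries, while over these 4 libraries Th stood at 2.16% to 8.40% and Pitx3 at 2.65% to 6.72%. In the 7 libraries with no Pitx3 read Th stood at 0.80% to 3.02%, with 2.91% in alar plate 3 and 2.95% in forebrain 1. Of the 4 libraries above, alar plate 2 lay within that range of Th, at 2.16%. Alar plate 1 and forebrain 2 and 3 lay above it, at 3.90%, 5.58% and 8.40%. En1, an engrailed factor of the midbrain and isthmus, was at 3.76% and 3.13% in forebrain 2 and 3 and at 6.29% and 3.96% in alar plate 1 and 2.

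Nr4a2 was also found in libraries with few dopaminergic transcripts. Dorsal midbrain 3 held Nr4a2 at 34.7% of the ventral midbrain mean, with Th at 1.04%, Foxa2 at 0.05% and no Pitx3 read. The summed level of 3 GABAergic neuron genes was 71.2 RPKM in that library, against 26.1 and 34.3 RPKM in dorsal midbrain 1 and 2, and the summed level of 10 pan-neuronal genes was 2611, against 1973 and 2181 RPKM. The 5 proliferation genes summed to 147 RPKM in dorsal midbrain 3, against 330 and 287 RPKM in its pair. In the forebrain the low library of Nr4a2, forebrain 1, had the most proliferation transcripts, with 144, 32.9 and 41.6 RPKM in libraries 1, 2 and 3, and the fewest pan-neuronal ones, with 2748, 3260 and 3352 RPKM. The same held in the hindbrain, with 90.3, 47.8 and 54.3 RPKM of proliferation genes and 2391, 2914 and 2795 RPKM of pan-neuronal genes. The alar plate libraries held 2626, 2949 and 2841 RPKM of pan-neuronal genes with Nr4a2 at 0.979 to 1.73 RPKM. The part of these neuronal and proliferation transcripts in the Nr4a2 levels was not tested.

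Markers of other neurons also moved with the ventral midbrain. All 3 serotonergic genes, Fev, Tph2 and Slc6a4, were higher there than in the mean of the other regions. Their summed level was 29.6 to 54.2 RPKM in the ventral midbrain and 49.1 to 79.8 RPKM in the hindbrain, against at most 0.777 RPKM in the other libraries, and none was at 0 in all ventral midbrain libraries. With the other 12 libraries as 1 group, 0 of the 3 passed by limma and 2 had an unadjusted p under 0.05. Of the 4 noradrenergic genes 2 passed the filter and both were higher, with sums of 10.03 to 13.2 RPKM in the ventral midbrain, 1.40 to 8.19 RPKM in the hindbrain and at most 0.216 RPKM elsewhere. Of the 4 cholinergic and motor neuron genes 3 passed the filter and all 3 were higher, with sums of 23.8 to 32.3 RPKM in the ventral midbrain and 0.582 to 18.6 RPKM elsewhere. The 3 GABAergic genes were lower, with sums of 9.99 to 18.5 RPKM in the ventral midbrain and 26.1 to 106 RPKM elsewhere. The part of these neurons in the ventral midbrain level of Nr4a2 was not tested.

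Pitx3 is also known from lens and muscle, so markers of both were read. None of the 6 lens genes passed the filter, and they summed to 1.34 to 1.62 RPKM in the ventral midbrain and 0.464 to 1.56 RPKM elsewhere. The crystallins Cryaa and Crygb had no read in the ventral midbrain, while Foxe3, a forkhead factor of the lens, had 0.229, 0.529 and 0.480 RPKM there and at most 0.220 RPKM elsewhere. Of the 8 muscle genes 1, Acta1, passed the filter and was not called, and the list summed to 28.3 to 33.8 RPKM in the ventral midbrain and 28.9 to 36.3 RPKM elsewhere. Nearly all of that sum was Acta1, which averaged 30.3 RPKM in the ventral midbrain and 30.7 to 33.9 RPKM in the other regions. Myod1, a regulator of muscle identity, was at 0 in the ventral midbrain, Myf5, another, was at 0 in all 15 libraries, and Myog, which drives muscle differentiation, had 0, 0.108 and 0.0588 RPKM in the ventral midbrain. Myh3, the embryonic myosin heavy chain, had 1.09, 0.742 and 1.01 RPKM there and at most 0.576 RPKM elsewhere. The part of lens or muscle transcripts in the Pitx3 level was not tested.

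NR4A2 works with other nuclear proteins, and 6 of these were set beside it, of which 1 was higher in the ventral midbrain and none lower, beside 7.43% and 3.16% of all genes. Rxrg, a retinoid X receptor, had 5.85, 5.23 and 5.21 RPKM in the ventral midbrain and at most 1.40 RPKM in any other library, with a difference of 2.19 ± 0.18 (SE, adjusted p = 5.4e-06 by limma) from the mean of the other regions. The ventral midbrain libraries lay above all others. Elsewhere only forebrain 3 reached 1 RPKM of Rxrg, so it met the filter through the ventral midbrain and its call was largely fixed by that. The other retinoid X receptors, Rxra and Rxrb, did not pass, with differences of -0.19 and -0.14. Sfpq, an RNA and DNA binding protein, Rcor1, the corepressor CoREST, and Cdkn1c, a cell cycle inhibitor, did not pass either. Cdkn1c had 131, 124 and 114 RPKM in the ventral midbrain and was lower there than in the dorsal midbrain and the alar plate (differences of -0.88 and -0.95, adjusted p = 0.0117 and 0.0102 by limma) but higher than in the hindbrain (1.12, adjusted p = 0.0089). The Cdkn1c call against the dorsal midbrain was lost without dorsal midbrain 1 or 2 (adjusted p = 0.0634 and 0.0627) and that against the hindbrain without ventral midbrain 1 (adjusted p = 0.054). Without dorsal midbrain 3, alar plate 3 and forebrain 1, Rxrg was higher and 4 partners (Rcor1, Rxra, Sfpq and Cdkn1c) were lower, in a fit that called 15.9% of all genes higher and 17.4% lower. Over the 6 partners the median difference from the other regions was -0.14, beside -0.02 over all genes.

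None of the 3 paralogs examined, Nr4a1, Nr4a3 and Pitx1, had its highest mean in the ventral midbrain. Nr4a1, a receptor of the same subfamily, was at 1.11 to 2.10 RPKM in all 15 libraries. Nr4a3, the third of these receptors, was highest in the hindbrain, with 2.12, 2.84 and 3.18 RPKM in the ventral midbrain, 0.479 to 1.35 RPKM in the dorsal midbrain, 0.0493 to 0.407 RPKM in the alar plate, 0.923 to 2.90 RPKM in the forebrain and 3.55, 15.7 and 16.4 RPKM in the hindbrain. It was higher in the ventral midbrain than in the alar plate (1.53, adjusted p = 0.033 by limma), and its difference from the hindbrain was -1.57 (adjusted p = 0.0666). The first call was lost without ventral midbrain 1, 2 or 3 or alar plate 3 (adjusted p = 0.0641, 0.0959, 0.114 and 0.0798) and by limma-voom (adjusted p = 0.0722), and without hindbrain 1 the difference from the hindbrain was -2.21 (adjusted p = 0.00102). Hindbrain 1 was the low library of its region for Nr4a3 as for Nr4a2. Pitx1, a paired-like homeodomain factor, was at 0, 0 and 0.0365 RPKM in the ventral midbrain, at 5.19, 2.996 and 0.115 RPKM in the alar plate, and at most 0.0636 RPKM in the other regions. Pitx1 and Pitx3 were thus both found in alar plate 1 and 2, with more of each in library 1, and Pitx3 had no read in alar plate 3.

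**Figure D4:**
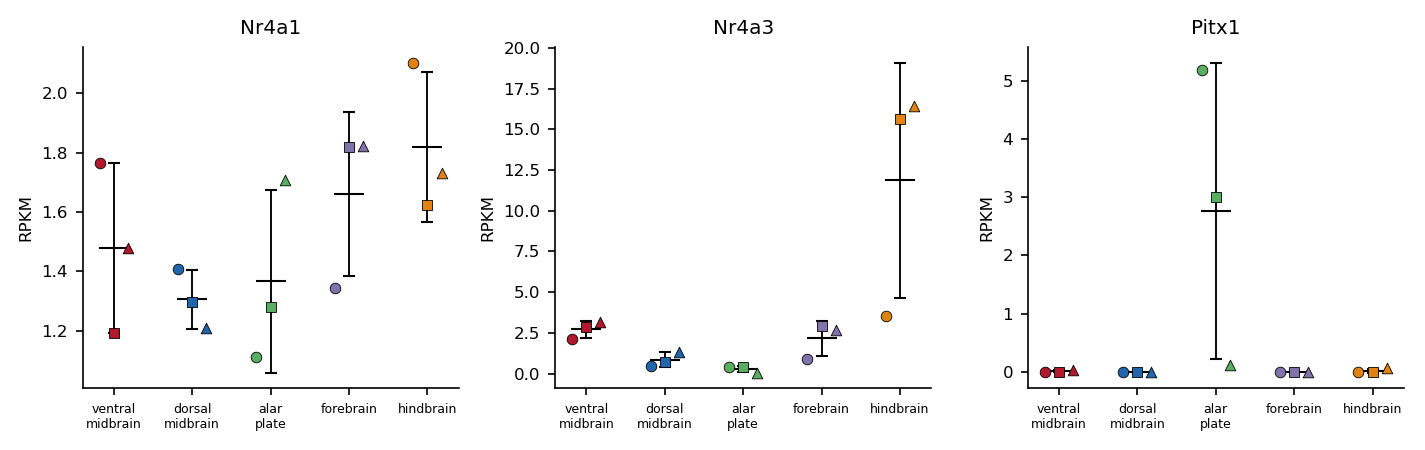
RPKM of Nr4a1, Nr4a3 and Pitx1 in each library, by region, with the symbols and bars of the plot of Pitx3 and Nr4a2. Each panel has its own axis, and that of Nr4a1 does not begin at 0. None of the 3 has its highest mean in the ventral midbrain: Nr4a3 is highest in hindbrain 2 and 3, and Pitx1 in alar plate 1 and 2.

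NR4A genes can be induced by activity or stress, and 10 immediate early genes were looked at for that reason. Of these, 3 passed the filter. Dusp1, a phosphatase of MAP kinases, was lower in the ventral midbrain, with 9.503, 9.69 and 10.4 RPKM there and 13.0 to 24.2 RPKM elsewhere (difference of -0.72, adjusted p = 0.00121 by limma). Fos, a subunit of the AP-1 factor, was at 0.11 to 0.36 RPKM in all libraries. The list summed to 21.6 to 21.7 RPKM in the ventral midbrain and 24.5 to 42.5 RPKM in the other libraries.

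Likeness to each member was measured by Pearson r on log2(RPKM + 1) over the 15 libraries, which share their regions and are not independent points. The 8 genes closest to Pitx3 were Th (r of 0.977), Slc6a3 (0.977), Hepacam2 (0.970), Elovl3 (0.969), Ret (0.967), Chrna6 (0.967), Tmem207 (0.959) and Gucy2c (0.955). Chrna6, a nicotinic receptor subunit, had 6.79, 10.8 and 8.16 RPKM in the ventral midbrain and at most 0.192 RPKM elsewhere. Hepacam2, an adhesion molecule of the immunoglobulin family, had 14.004, 15.2 and 12.4 RPKM there and at most 3.14 RPKM elsewhere. Gucy2c, a guanylate cyclase receptor, had 3.02, 4.02 and 3.43 RPKM there and at most 1.39 RPKM elsewhere. Slc6a3, Elovl3, Chrna6, Tmem207 and Gucy2c met the filter only through their ventral midbrain libraries, so a likeness to Pitx3 was partly set by the filter. Elovl3, a fatty acid elongase, averaged 3.39 RPKM in the ventral midbrain and had no read in the dorsal midbrain and hindbrain. Its RefSeq model on GRCm38 overlaps that of Pitx3 by 414 bases on the other strand, and the sources used here do not state whether counting used strand, so some reads may be shared between them.

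**Figure D5:**
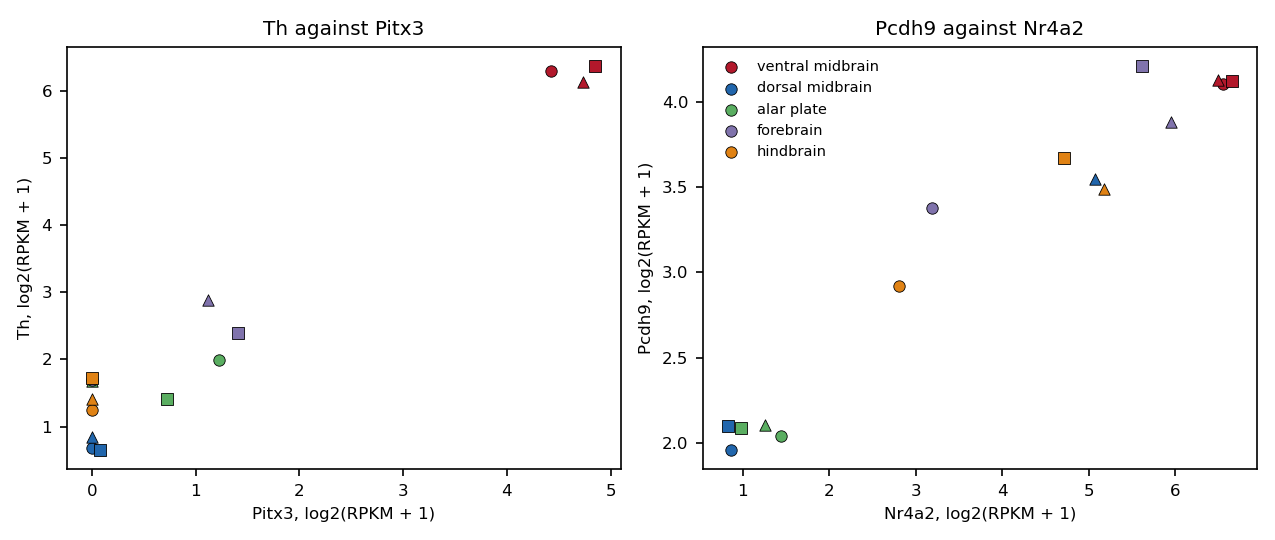
Each point is a library, placed by log2(RPKM + 1) of Pitx3 and Th (left) and of Nr4a2 and Pcdh9 (right), with colour for the region and shape for the sample number (circle 1, square 2, triangle 3). On the left the 3 ventral midbrain libraries stand alone at the top right (r of 0.977 over 15 libraries). On the right the libraries spread along a line from alar plate and dorsal midbrain 1 and 2 to the ventral midbrain (r of 0.976).

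The genes closest to Nr4a2 were Pcdh9 (r of 0.976), Cobl, an actin nucleator (0.941), Cntn6, a contactin (0.934), Caln1 (0.932), Gpd2 (0.932), Elavl4 (0.930), Plcb1, a phospholipase (0.920) and Elavl2 (0.920). The 2 groups of 8 share no gene. Pcdh9, a protocadherin, had 16.2, 16.4 and 16.5 RPKM in the ventral midbrain, 2.89, 3.29 and 10.7 RPKM in the dorsal midbrain, 3.11, 3.26 and 3.30 RPKM in the alar plate, 9.41, 17.5 and 13.8 RPKM in the forebrain and 6.58, 11.7 and 10.2 RPKM in the hindbrain. Dorsal midbrain 3 again stood above its pair, and forebrain 1 and hindbrain 1 below theirs. Elavl4, an RNA-binding protein of postmitotic neurons, had 78.2, 74.2 and 75.1 RPKM in the ventral midbrain and 39.3, 39.1 and 66.7 RPKM in the dorsal midbrain. Over the 12 libraries outside the ventral midbrain Pcdh9 remained closest to Nr4a2 (r of 0.969), followed by Capn5 (0.934), Slc7a4 (0.926), Cntn6 (0.926), Cadps2 (0.926), Cobl (0.925), Lingo2 (0.924) and Cdr1 (0.923). Pitx3 and Nr4a2 had an r of 0.636 with each other, which placed Nr4a2 585th among 13744 genes for Pitx3 and Pitx3 1434th for Nr4a2.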

How the data were processed

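The data are 15 RNA-seq libraries, 3 from each of 5 regions, described per the labels' protocols as dissected tissue, Trizol RNA and Illumina TruSeq libraries. The authors deposited 1 table of RPKM values, and the submitters' processing notes name Bowtie and the mm9 genome. The sources used here give neither the annotation nor the strand and method of counting. Whole reads were recovered from the steps of the deposited RPKM values for 99.9% of 16612 genes above 0 in at least 10 libraries (tolerance 0.02 to 0.15 reads), which set the detection floors, and the procedure was tested on simulated data. A count of 3 reads was taken as the floor.

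Regions were compared in 1 limma fit (version 3.58.1, R 4.3.3; variance trend, two-sided) of log2(RPKM + 1), for 13745 genes at 1 RPKM or more in at least 3 libraries. Both members passed that filter. P-values were adjusted by Benjamini-Hochberg within a comparison over all genes tested, and genes under 0.05 were called. Alternatives changed the pseudocount, filter, scaling, libraries, regions fitted and replicate block, and limma-voom on the recovered reads was added after seeing the data. Members, lists and tests were chosen with earlier results of these data known, so the lists are described by counts and medians only. Named genes are the members, their paralogs, the upstream, downstream and partner lists, up to 4 genes of each other list by size of difference or set beside a member in 1 library, and the 8 genes of highest r to each member. Some genes of these lists are not reported here. The reference at hand is GRCm38 and not mm9, so coordinates are given only for RefSeq promoters (GRCm38.p6), which matched both members and 13 of the 14 downstream genes. Figures were drawn with matplotlib 3.10.9.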

Additional observations from a re-analysis of the deposited data

How the results depend on the processing

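All 10 differences between the ventral midbrain and other regions stayed positive for both members in 24 alternative fits, which gave 240 results. These fits reuse the same 15 libraries and are not separate checks. The calls stayed the same in 232 of the 240 results, 120 of 120 for Pitx3. For Nr4a2, leaving out 1 library at a time put the difference from the mean of the other regions at 3.19 to 3.76 and from the dorsal midbrain at 3.596 to 5.71. The call against the mean was lost with the other 12 libraries as 1 group (3.41, adjusted p = 0.118 by limma), and that against the hindbrain was gained in the regions alone (2.34, adjusted p = 0.0246) and without dorsal midbrain 3, alar plate 3 and forebrain 1 (2.34, adjusted p = 0.00471). Among the other regions signs changed for Nr4a2 in dorsal midbrain minus alar plate (-0.38 without dorsal midbrain 3, -0.36 without those 3 libraries, main value 1.03) and in forebrain minus hindbrain (-0.0208 without hindbrain 1, main value 0.69), and for Pitx3 in forebrain minus alar plate (-0.13 without alar plate 3, -0.0916 without forebrain 2, main value 0.19). The ranges with 1 library left out were -0.38 to 1.74, -0.0208 to 1.55 and -0.13 to 0.61 for these 3 differences, in that order. The cause was not tested.

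Counts of genes called depended strongly on which libraries were fitted. Against the mean of the other regions 1456 genes were called, 736 to 2690 with 1 library left out, 520 with the others as 1 group and 4587 without the 3 libraries. Against the dorsal midbrain the numbers were 3280, 1498 to 5938, 5330 in the regions alone and 7961. Against the alar plate they were 1958, 1002 to 2888, 1007 and 4203. Against the forebrain they were 1145, 689 to 2290, 1976 and 4386, with 717 under a filter of 5 RPKM. Against the hindbrain they were 522, 259 to 1115, 2191 and 2734, with 312 under that filter.

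The titles number the samples but name no pairing between regions. Of 30 same-numbered pairs of libraries, 18 had deviations from their region means with r over 0.1 (from -0.175 to 0.405). Of 15 libraries, 10 lay closest on average to their own number. Same-numbered libraries may therefore share something that the main fit, which held no replicate block, leaves out. What they share was not tested. A replicate block left the ventral midbrain calls of both members as they were (Nr4a2 against the mean of the other regions 3.41), with 1513 genes called there in place of 1456, and brought Nr4a2 under the threshold in forebrain minus dorsal midbrain (adjusted p = 0.0373 by limma) and hindbrain minus alar plate (adjusted p = 0.0486). It moved the calls between dorsal midbrain and alar plate to 822, from 230.

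In the 7 libraries with 0 Pitx3 reads, 3 reads would be worth 0.165 to 0.207 RPKM, and a lower level was not detectable.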

Other observations

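Genes next to the members on their chromosomes were looked at after their values had been seen. On the Pitx3 side Elovl3 was close to it (r of 0.969 over 15 libraries), while Gbf1, Nfkb2 and Psd had an r of 0.560, 0.673 and 0.263, and Nolc1 and Pprc1 one of -0.235 and -0.011. Gbf1, a regulator of Golgi traffic, averaged 32.5 RPKM in the ventral midbrain and 19.1 to 25.5 RPKM in the other regions. Near Nr4a2 the third measured gene on one side, Gpd2, the mitochondrial glycerol-3-phosphate dehydrogenase, had an r of 0.932, and averaged 7.36 RPKM in the ventral midbrain and 2.14 to 4.48 RPKM elsewhere. On the other side Rprm, a cell cycle arrest gene, had an r of 0.796, and averaged 57.9 RPKM in the ventral midbrain, 10.5 in the dorsal midbrain, 13.0 in the alar plate, 23.0 in the forebrain and 45.0 in the hindbrain. Between Rprm and Nr4a2 lie Galnt13, a glycosyltransferase with an r of 0.840 and a mean of 0.977 RPKM in the ventral midbrain, and Kcnj3, a potassium channel subunit with an r of 0.314. Libraries of a region are not independent points, so these values are a description.

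The motif search also covered other downstream genes. The promoter windows of Slc18a2 and Ptpru held TGACGTCA from base -4 and base -41, and that of Slc6a3 held none of the 4 motifs.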
